A study of Mus musculus with 36 samples.

Results

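Open chromatin at the genes for interleukin-15 (Il15), the alpha chain of its receptor (Il15ra) and the alpha chain of the interleukin-2 receptor (Il2ra) was examined in mouse dendritic cells after stimulation. Peaks were taken when their deposited interval (build mm10) overlapped the body of 1 of these 3 genes or the 20 kb to either side. This gave 42 of the 119751 peaks in the table: 21 at Il15 (14 touching the gene body), 9 at Il15ra (7 touching it) and 12 at Il2ra (10 touching it). All 42 passed the filter on low counts, as did 119464 peaks in all. Within each gene the peaks are lettered in order of position, so that Il15-a lies lowest on the chromosome.

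Il15 occupies chr8:82331624-82403252 (gene ID 16168), Il2ra chr2:11642792-11693194 (gene ID 16184) and Il15ra chr2:11705172-11733985 (gene ID 16169). The bodies of Il2ra and Il15ra are 11977 bases apart, and 8 of the peaks lie in the windows of both. These are Il15ra-a to Il15ra-e, Il2ra-j, Il2ra-k and Il2ra-l, each counted once, with the gene whose body it overlaps. Il2ra-j, Il2ra-k and Il2ra-l also overlap the long noncoding RNA gene Gm39760.

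The cells were bone marrow-derived dendritic cells, antigen-presenting cells grown with GM-CSF from the marrow of female C57BL/6J mice aged 6 to 8 weeks. They were profiled by ATAC-seq, in which a transposase cuts open chromatin, 6 h after stimulation. There were 18 groups with 2 libraries each (36 in all): cells left untreated as control, cells given 1 of 6 ligands, 8 combinations of 2 ligands and 3 of 3 ligands, called triplets. The single ligands are PAM (P), LPS (L), HMW (H), SeV, which is Sendai virus (S), 3',3'-cGAMP (cG) and Zymosan depleted (Z). The pairs are PL, PH, LH, PS, PcG, ScG, ZS and ZcG, and the triplets PLH, PScG and ZScG. All groups share the mouse strain, the culture with GM-CSF and the time point. The labels do not say whether the 2 libraries of a group came from separate mice or cultures, so the p-values measure only the spread between these libraries.

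Interleukin-15 is a cytokine that keeps natural killer cells and memory CD8 T cells alive. Dendritic cells hold it on their surface bound to interleukin-15 receptor alpha and present it to neighbouring cells, which carry the beta chain and the common gamma chain. Interleukin-2 receptor alpha (CD25) raises the affinity of the receptor for interleukin-2 and is best known from activated and regulatory T cells, though activated dendritic cells also carry it. LPS and PAM act through Toll-like receptors, Sendai virus is sensed as RNA in the cytosol, and 3',3'-cGAMP activates STING.

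Promoter windows of 300 bases, running from 250 bases before a start to 50 after it, are shown because the start peaks of both receptor genes cover them whole. They are RefSeq sequences of build GRCm38.p6, plus strand, and 2 of the 3 genes matched, not Il15. Capitals mark motif matches. Il15ra has 2 starts. The window of the first (chr2:11705043-11705342) holds an interferon-stimulated response element core (ISRE core, GAAANNGAA) on the minus strand. The window of the second (chr2:11705462-11705761) holds an AP-1 motif (TGANTCA) and, after the start, an ISRE core on the plus strand. The Il2ra window (chr2:11642542-11642841) holds 3 overlapping kappaB matches, the motif of NF-kappaB, marked as 1 run. They start at base 50 of the window, where the same bases match on both strands, and at base 51.
Il15ra, first start: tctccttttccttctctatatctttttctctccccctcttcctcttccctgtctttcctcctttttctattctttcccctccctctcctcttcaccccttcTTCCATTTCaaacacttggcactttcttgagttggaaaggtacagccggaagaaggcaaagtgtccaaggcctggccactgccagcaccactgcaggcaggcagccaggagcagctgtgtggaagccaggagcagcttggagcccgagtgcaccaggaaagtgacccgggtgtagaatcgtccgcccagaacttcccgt
Il15ra, second start: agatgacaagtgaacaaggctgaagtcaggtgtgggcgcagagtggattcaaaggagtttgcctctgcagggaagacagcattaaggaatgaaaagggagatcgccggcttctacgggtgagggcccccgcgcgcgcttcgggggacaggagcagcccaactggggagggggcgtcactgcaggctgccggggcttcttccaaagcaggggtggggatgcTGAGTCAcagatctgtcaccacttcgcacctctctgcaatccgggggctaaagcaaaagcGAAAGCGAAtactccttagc
Il2ra: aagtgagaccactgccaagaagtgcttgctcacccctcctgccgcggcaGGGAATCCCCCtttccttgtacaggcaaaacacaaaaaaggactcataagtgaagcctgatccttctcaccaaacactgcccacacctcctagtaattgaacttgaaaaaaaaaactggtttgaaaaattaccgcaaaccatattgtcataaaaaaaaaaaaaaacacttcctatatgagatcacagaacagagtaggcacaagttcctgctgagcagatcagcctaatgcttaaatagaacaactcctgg
The same search on both strands over all 32851 promoter windows of this length found an ISRE core in 8.56%, AP-1 in 7.81% and kappaB in 4.51%. The GAS motif (TTCNNNGAA), found in 8.3% of all windows, and the PU.1 motif (GAGGAAGT), in 3.2%, had no match in these 3 windows. A match describes the letters only, and binding was not measured.

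Accessibility is given as CPM, the counts of a peak scaled to library size, with the counts of a mitochondrial peak left out. Libraries held 19097027 to 39977088 counts, of which 8181254 to 21985891 lay outside that peak, and 1881 to 7756 of them lay in the 42 peaks. The mitochondrial share of counts split the groups: it averaged 58.3% to 63.0% in control, Z, ZcG, ScG and ZScG, and 44.4% to 54.6% in the other 13 groups. Replicate libraries correlated at r = 0.901 to 0.958 on log2 CPM over all tested peaks and differed by more than sampling noise (chi-square per degree of freedom 2.08 to 3.31). All 8 dendritic and myeloid marker genes had a peak at an end of the gene, with a summed level of 204.2 CPM in control and 186.1 (PH) to 251.3 (ZS) over the groups. The sum held opposite shifts. Ciita was highest in control at 3.81 CPM, with 0.591 in its lowest group, and Csf2ra was lowest in control at 60.3, with 112 in its highest. Of the T cell list, Cd4 alone had a peak (3.97 CPM in control, 3.93 in LH to 7.64 in ZS), and Cd3e, Cd3g, Cd8a and Lck had none. Among natural killer cell markers Ncr1 had no peak, and the other 2 genes summed to 17.2 CPM in control and 10.9 (PL) to 19.3 (Z) over the groups. The neutrophil genes Ly6g and Elane had none, and S100a8 and Camp together ran from 20.2 (ZScG) to 47.8 CPM (P), with 36.3 in control. The 3 macrophage genes summed to 38.6 CPM in control and 33.7 (Z) to 49.3 (PS). The part of these shifts in the results was not tested. In bulk libraries, more cells with an open site and a wider opening per cell cannot be told apart.

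The 42 peaks spanned mean levels of 0.619 to 47.8 CPM, with a median of 5.08 at Il15, 3.41 at Il15ra and 3.70 at Il2ra. The highest was Il15-r (chr8:82401037-82403516), which covers the higher end of the Il15 body. No peak lay within 1 kb of its lower end. The peaks over the starts of Il15ra (Il15ra-a, chr2:11705041-11706352) and Il2ra (Il2ra-c, chr2:11642441-11643029) averaged 15.95 and 5.03 CPM.

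**Figure D1:**
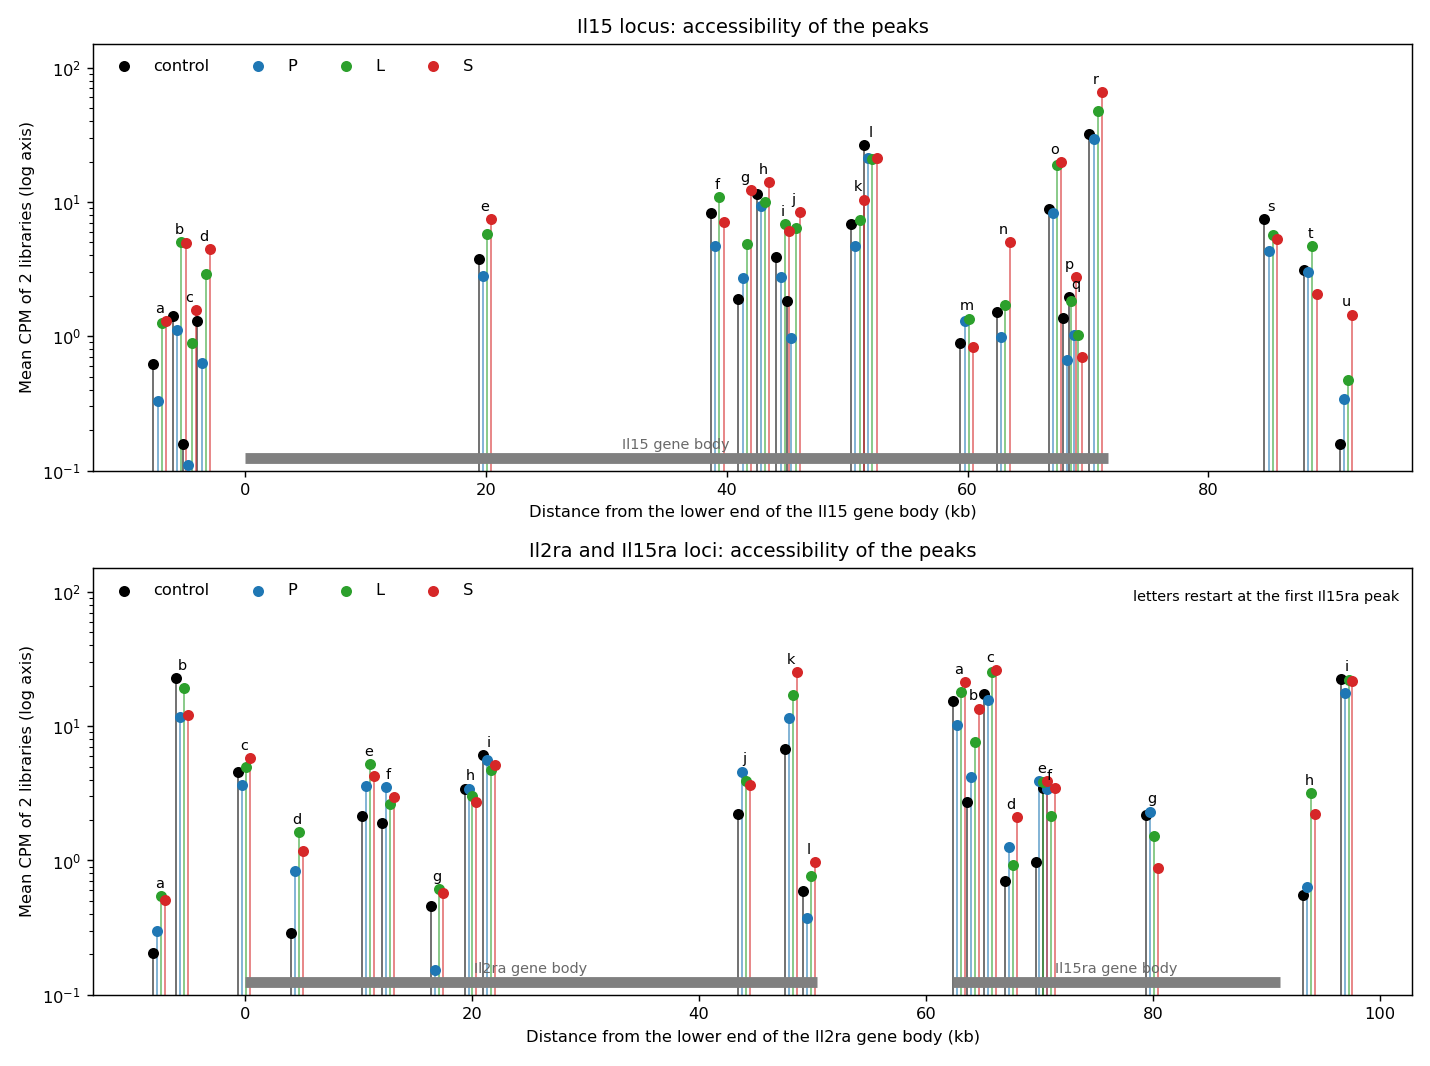
Mean CPM of 2 libraries (log axis) of each peak against its distance from the lower end of the gene body in kb, for Il15 (upper panel) and for Il2ra and Il15ra (lower panel), in control, P, L and S. Grey bars are gene bodies. Il15-r is the highest peak at 66.2 CPM in S, and P lies below control at most Il15 peaks.

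Which ligands opened these loci was asked first by comparing each of the 17 stimulations with control. Across the 714 combinations of peak and stimulation, 231 were called higher (32.4%) and 45 lower (6.3%), where a call is an adjusted p under 0.05 in edgeR's quasi-likelihood test. Over all tested peaks, 13% were called higher and 12.3% lower. At Il15, 117 of 357 were higher and 21 lower, at Il15ra 57 of 153 and 8, and at Il2ra 57 of 204 and 16. All 17 comparisons share the same 2 control libraries. Without control replicate 1 the lower calls fell from 45 to 24, and 145 of the 276 calls held without every library in turn. Scaling by total counts instead gave 297 higher and 19 lower calls, and there the median of all tested peaks shifted by up to 0.45 on the log2 scale, against 0.04 with the main scaling. None of the 276 calls changed sign with it.

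Of the 42 peaks, 24 were called higher in at least 1 stimulation and lower in none, and 9 were called lower only. Il15ra-a was called in both directions. The remaining 8 peaks were called in no stimulation: Il15-a, Il15-h, Il15-m, Il15-p, Il15-t, Il2ra-c, Il2ra-i and Il2ra-l. The same counts were not made over all tested peaks, so whether these numbers are unusual cannot be told. On the same mitochondrial side as control, where Z, ScG, ZcG and ZScG lie, 27.4% of peak and stimulation combinations were higher and 7.74% lower, against 11.5% and 10.4% of all tested peaks. The 13 stimulations on the other side had 33.9% higher and 5.86% lower, against 13.4% and 12.9%.

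Sendai virus moved the most member peaks among single ligands: 20 higher and 2 lower, where 14.1% of all tested peaks were higher and 13.8% lower. After 3',3'-cGAMP 16 were higher and 2 lower (background 11.6% and 11.6%), after LPS 15 and 0 (11.2% and 11.1%, with 1 lower at an unadjusted p under 0.05 and 0 by DESeq2) and after HMW 10 and 1 (5.21% and 5.46%). PAM gave 3 higher and 4 lower (11.1% and 9.45%), and Zymosan depleted 2 higher and 1 lower (4.16% and 1.75%). The higher counts for Sendai virus and LPS fell without control replicate 2, and that for HMW without control replicate 1. The higher count for PAM was 1 without P replicate 1, 5 without P replicate 2 and 6 with scaling by total counts, that for 3',3'-cGAMP was 10 without control replicate 2, and that for Zymosan depleted 0 without control replicate 1. Without that control library the lower counts were 2 for PAM, 1 for Sendai virus and 0 for HMW, 3',3'-cGAMP and Zymosan depleted.

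The median log2 fold change of the 42 peaks was 0.73 after Sendai virus, 0.60 after 3',3'-cGAMP, 0.56 after LPS, 0.42 after HMW, 0.06 after Zymosan depleted and -0.23 after PAM. The median over all tested peaks lay between -0.04 and 0.04 in each of the 17 comparisons. After PAM no Il15 peak was called higher (4 member peaks were called lower, of which Il15-f and Il15-s lie at Il15), and the median of the 21 Il15 peaks was -0.44. The 3 peaks that rose with PAM were Il15ra-e, Il2ra-j and Il2ra-k, and with scaling by total counts 1 of its 4 lower calls was left, Il2ra-b. The 2 that rose with Zymosan depleted were Il15-o and Il2ra-k.

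Among pairs, ScG had 20 member peaks higher and 4 lower (14.4% and 13.3% of all tested peaks), PcG 17 and 2 (16.8% and 16.2%) and PS 15 and 4 (17.3% and 16.2%). PL had 15 and 1 (13.8% and 13.5%), LH 14 and 0 (11.3% and 10.5%, with 0 lower also at an unadjusted p under 0.05 and by DESeq2) and PH 12 and 1 (13.6% and 12.8%). With Zymosan depleted, ZS had 12 and 7 (14.4% and 14%) and ZcG 10 and 3 (11.4% and 10.2%). The triplets PLH, PScG and ZScG had 18 and 3 (14.9% and 14.7%), 18 and 5 (19% and 18.1%), and 14 and 5 (16.2% and 16.1%). In each combination the share of member peaks called higher lay above that of all tested peaks. The higher counts for PL, LH, PS, PcG, PScG, ZS and ZcG fell without control replicate 2, and that for PH without PH replicate 2. Without control replicate 2 the higher count was 11 for ScG and 12 for PLH, and without ZScG replicate 2 it was 9 for ZScG. Lower counts moved as well: without control replicate 1 they were 3 for ZS, 3 for ZScG, 2 for PS, 1 for ZcG and 0 for PL, without control replicate 2 they were 3 for PScG and 3 for PH, without ScG replicate 2 it was 1 for ScG, and without PLH replicate 1 it was 0 for PLH.

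**Figure D2:**
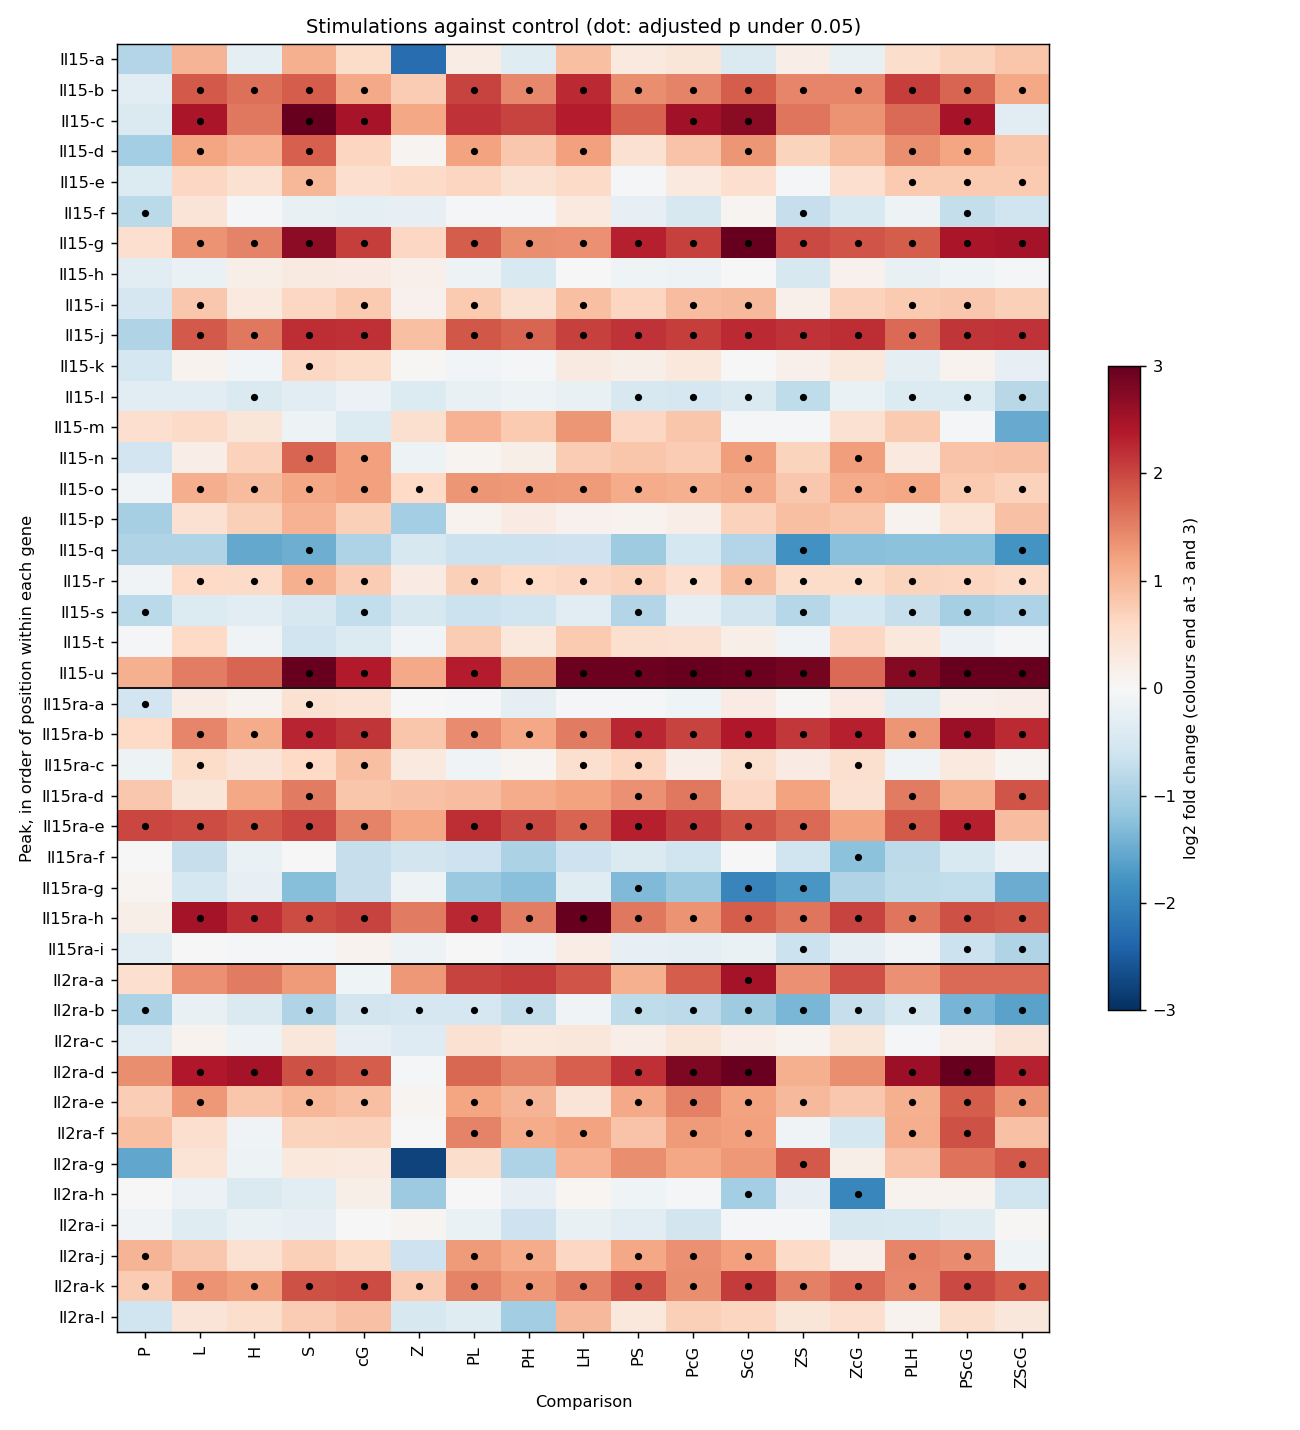
Fitted log2 fold change of each of the 42 peaks (rows, in order of position within each gene) in the 17 stimulations against control (columns), with colours ending at -3 and 3. Dots mark the 276 calls, and the P and Z columns hold 7 and 3 of them.

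At Il15, the ligand gene, Il15-r was higher after every stimulation except P and Z. Control gave 31.6 and 32.0 CPM in its 2 libraries, P 32.6 and 26.4, and Z 37.3 and 38.0. LPS gave 45.2 and 50.3 CPM, HMW 45.0 and 49.7, 3',3'-cGAMP 50.1 and 56.8, and Sendai virus 68.4 and 64.0. Both libraries lay above both control libraries in 16 of 17 stimulations, all but P, whose libraries straddled control. S stood highest and did not overlap the next group, ScG (57.9 and 62.0 CPM). The level after S was 2.08 times the control mean, or 1.06 ± 0.11 (SE) on the log2 scale (adjusted p = 2.3e-16).

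The pairs and triplets lay between those levels at Il15-r, from 44.0 CPM in a ZS library to 62.0 in ScG, and from cG down to PcG each group in order of mean overlapped the next. The peak rose in 15 stimulations, with log2 fold changes from 0.49 in PcG to 1.06 in S, and each of these 15 calls held without every library in turn. The values that did not pass were -0.11 ± 0.11 for P (adjusted p = 0.54) and 0.24 ± 0.12 for Z (adjusted p = 0.23).

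Besides Il15-r, Il15ra-a and Il2ra-c, the 3 peaks of each gene called in the most stimulations were followed in every library. They are Il15-g, Il15-j, Il15-o, Il15ra-b, Il15ra-e, Il15ra-h, Il2ra-b, Il2ra-e and Il2ra-k, and their numbers of calls are partly set by that choice. Inside the gene body, Il15-g (chr8:82372729-82373535) went from 1.86 and 1.93 CPM in control to 12.2 and 12.2 in S and 12.6 and 18.03 in ScG. L had 5.09 and 4.64 CPM, H 6.10 and 4.48, and cG 8.51 and 7.52. P had 3.59 and 1.81 and Z 3.41 and 2.52 CPM, of which the P libraries overlapped control. Il15-g rose in 15 stimulations, to 8.08 times the control mean in ScG (log2 fold change 3.00 ± 0.28 SE, adjusted p = 1.8e-18), and all 15 calls held without every library in turn. P (0.50, adjusted p = 0.33) and Z (0.63, adjusted p = 0.35) did not pass.

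Il15-j (chr8:82376896-82377462) had 2.51 and 1.16 CPM in control and 1.22 and 0.722 in P. It had 2.63 and 3.99 in Z, 5.58 and 7.28 in L, and 5.84 and 5.00 in H. It had 8.83 and 7.87 in S and 8.04 and 8.46 in cG. The 9 groups that received S or cG, alone or combined, lay between 7.09 and 9.24 CPM in every library, and neighbours in their order overlapped. The peak rose in 15 stimulations, by 2.21 ± 0.30 (SE) on the log2 scale in S (4.55-fold, adjusted p = 3.3e-10). Without control replicate 2 the call in H was lost (adjusted p = 0.052). P was at -0.89 ± 0.42 (adjusted p = 0.12) and Z at 0.89 (adjusted p = 0.13).

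Il15-o (chr8:82398463-82399331) had 8.30 and 9.36 CPM in control, 6.71 and 9.82 in P and 12.3 and 14.3 in Z. Its highest group was PL with 24.5 and 19.8 CPM, and S had 18.5 and 21.2. It rose in 16 stimulations, by 1.33 ± 0.17 (SE) on the log2 scale in PL (adjusted p = 1.7e-11), and P was the exception at -0.09. The rise in Z (0.59 ± 0.18, adjusted p = 0.032) was lost without any 1 of the control or Z libraries (adjusted p = 0.22 without control replicate 1, 0.075 without control replicate 2, 0.051 without Z replicate 1 and 0.27 without Z replicate 2) and with scaling by total counts (adjusted p = 0.056). The rise in ZScG was lost without ZScG replicate 2 (adjusted p = 0.056).

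Several further Il15 peaks, picked for mention after their values were seen, moved in many groups. Il15-b, 4820 bases below the gene body, had 1.75 and 1.06 CPM in control and 5.57 and 7.77 in LH, and rose in 15 stimulations, of which 7 held without control replicate 2. Il15-u, 19657 bases above the body, held 2 and 1 counts in control, and 18 and 28 in S, and passed in 11 stimulations, 4 of them without control replicate 2. Il15-b and Il15-u, like Il15-g, Il15-j, Il15-o and Il15-r, had both libraries above control in every stimulation but P. In the other direction, Il15-l had 25.9 and 27.2 CPM in control and 17.2 and 12.3 in ZScG (-0.84 ± 0.15 SE, adjusted p = 2.9e-06) and fell in 8 stimulations, 4 of them without control replicate 2 and 2 of them (ZS and ZScG) with scaling by total counts. Il15-s fell in 7 stimulations, 1 of them without control replicate 1 and 1 (ZScG) with scaling by total counts, and Il15-q in S, ZS and ZScG, none of them without either control library. In Il15-l, Il15-q and Il15-s both libraries lay below control in all 17 stimulations. P had the lowest group mean of all 18 groups in 12 of the 21 Il15 peaks, in 2 of the 9 Il15ra peaks and in 0 of the 12 Il2ra peaks. How often P was lowest over all tested peaks was not counted. At Il15-r and Il15-o the P libraries overlapped those of control.

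At Il15ra, which encodes the chain that holds interleukin-15, the start peak and its neighbours differed. The start peak Il15ra-a, whose windows are printed above, had 19.1 and 11.8 CPM in control, 10.8 and 9.82 in P, and 20.9 and 21.6 in S. It had 17.4 and 18.3 CPM in L, 17.5 and 15.6 in H, 20.05 and 20.7 in cG, and 14.04 and 16.5 in Z. The 2 control libraries spanned most of this range, so only S and cG lay wholly above control and only P wholly below. It rose in S (0.47 ± 0.16 SE, adjusted p = 0.018) and fell in P (-0.58 ± 0.17 SE, adjusted p = 0.0084), and cG did not pass (0.41, adjusted p = 0.052). The call in S was lost without control replicate 2 (adjusted p = 0.63) or either S library (0.052 and 0.088), and that in P without control replicate 1 (adjusted p = 0.62) or P replicate 2 (0.11) and with scaling by total counts (-0.25, adjusted p = 0.36).

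Il15ra-b (chr2:11706534-11707419), the next peak into the gene, had 2.40 and 3.09 CPM in control. P had 4.73 and 3.61, Z 3.28 and 6.40, H 6.23 and 5.69, and L 8.05 and 7.17. The levels were 12.1 and 12.3 in cG, 14.3 and 12.7 in S and 15.7 and 16.9 in PScG, which stood above the next group, ScG (15.3 and 13.7). Every stimulation had both libraries above control. Each of the 9 groups that received S or cG had both libraries at 10.25 CPM or more, while no library of L, H, PL, PH, LH or PLH exceeded 9.16. The peak rose in 15 stimulations, by 2.29 ± 0.24 (SE) in S (adjusted p = 1.9e-15) and 2.56 ± 0.24 in PScG (5.93 times the control mean, adjusted p = 7.1e-19). P (0.59 ± 0.28, adjusted p = 0.13) and Z (0.84, adjusted p = 0.062) did not pass, and H (1.11 ± 0.27, adjusted p = 0.0017) was lost without control replicate 1 (adjusted p = 0.068).

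Il15ra-e (chr2:11712617-11713350) had the largest rise with PAM among the peaks followed in every library. Control had 0.874 and 1.06 CPM, P 5.03 and 2.82, S 3.92 and 3.88, L 3.53 and 4.10, and PS 6.40 and 3.67. P was 4.06 times the control mean, 2.00 ± 0.42 (SE) on the log2 scale (adjusted p = 6.6e-05), and PS 2.34 ± 0.40 (adjusted p = 3.7e-07). The P replicates differed widely, yet both libraries of each stimulation lay above both of control. It rose in 14 stimulations, all but Z (1.16, adjusted p = 0.14), ZcG (1.20, adjusted p = 0.052) and ZScG (0.92, adjusted p = 0.14). The rise in cG was lost without control replicate 1 (adjusted p = 0.072) or cG replicate 1 (0.14).

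Il15ra-h (chr2:11736365-11736820) lies 2380 bases beyond the gene body. It had 0.328 and 0.772 CPM in control, 0.687 and 0.578 in P, 2.90 and 3.45 in L, and 4.33 and 5.00 in LH. LH lay above all other groups, at 8.48 times the control mean (3.03 ± 0.50 SE, adjusted p = 3.2e-07). The peak rose in 15 stimulations, but 12 of these calls were lost without control replicate 1, which held the lower of the control values, and 2 held without every library in turn. P was at 0.17 (adjusted p = 0.89).

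Of the other Il15ra peaks, described after their values were seen, Il15ra-c (chr2:11707925-11709006) rose in 7 stimulations and was highest in cG, at 28.3 and 36.3 CPM against 18.03 and 16.8 in control (0.90 ± 0.14 SE, adjusted p = 4.1e-08), and 4 of the 7 held without control replicate 2. Il15ra-d rose in 5 stimulations, all of them lost without control replicate 1. Il15ra-i, 5437 bases beyond the body and 2713 bases from the nearer end of the gene Fbh1, fell in ZS, PScG and ZScG. It went from 23.8 and 20.7 CPM in control to 12.1 and 11.9 in ZScG (-0.89 ± 0.16 SE, adjusted p = 2.1e-06), and these 3 calls held without every library in turn, though PScG did not pass with scaling by total counts (adjusted p = 0.15). Il15ra-g fell in PS, ScG and ZS and Il15ra-f in ZcG, none of them without control replicate 1.

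At Il2ra, the CD25 gene, the start peak Il2ra-c was called in no stimulation. It had 4.92 and 4.25 CPM in control, 3.28 and 4.05 in P, and 3.94 and 3.15 in Z. It had 5.23 and 4.69 in L, 4.19 and 3.96 in H, 6.28 and 5.29 in S, and 3.10 and 4.51 in cG. Its highest group was PL with 6.03 and 6.52 CPM. Group means ran from 3.54 to 6.27 CPM, and each neighbour in that order overlapped the next. PL was at 0.45 ± 0.28 (SE, adjusted p = 0.23) and S at 0.34 ± 0.27 (adjusted p = 0.38). With scaling by total counts PL, PcG and S passed.

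Il2ra-k (chr2:11690068-11691726), near the far end of the gene body, was the 1 member peak called higher in all 17 stimulations. It also lies in the Il15ra window. Control had 6.67 and 6.85 CPM, P 13.7 and 9.25, Z 12.7 and 10.5, and H 16.2 and 16.3. L had 17.7 and 16.7, S 21.1 and 29.8, cG 24.6 and 28.3, and ScG 31.9 and 26.1. No stimulated library overlapped control, and P and Z were the lowest stimulated groups and overlapped each other. The log2 fold changes ran from 0.76 ± 0.18 (SE) in P (adjusted p = 0.00076) to 2.10 ± 0.17 in ScG (4.29-fold, adjusted p = 3.7e-23). The call in P was lost without P replicate 1 (adjusted p = 0.16), and that in Z (0.77 ± 0.19, adjusted p = 0.0048) without control replicate 1 (0.054) or Z replicate 1 (0.12).

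Il2ra-b (chr2:11636953-11637626), 5166 bases before the gene body, went the other way. Control had 25.7 and 19.7 CPM, LH 20.9 and 21.3, L 19.3 and 19.2, and H 17.6 and 15.7. P had 11.3 and 12.0, S 12.0 and 12.0, and ZScG 7.60 and 7.17 CPM. Both libraries lay below control in every stimulation but LH, whose values fell within the control range. It fell in 14 stimulations, by 0.96 ± 0.17 on the log2 scale in P (adjusted p = 1.1e-06) and 1.61 ± 0.19 in ZScG (adjusted p = 4.3e-13), to 0.326 times the control mean. L (-0.23, adjusted p = 0.3), H (-0.44, adjusted p = 0.058) and LH (-0.10, adjusted p = 0.71) did not pass. Without control replicate 1, 5 of the 14 calls were lost, and with scaling by total counts the calls in cG, PL, PH, PS, PcG and PLH were lost (adjusted p = 0.067 to 0.61).

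Il2ra-e (chr2:11653321-11654018) had 2.62 and 1.64 CPM in control, 5.04 and 2.10 in P, 4.59 and 5.82 in L, and 8.62 and 6.47 in PScG. It rose in 12 stimulations, by 1.83 ± 0.33 (SE) in PScG (adjusted p = 1.7e-06), but 10 of these calls were lost without control replicate 2. P did not pass (0.75, adjusted p = 0.13). Its libraries also overlapped those of control in Z and LH.

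Il2ra-j and Il2ra-d, picked after their values were seen, also rose. Il2ra-j had 1.97 and 2.51 CPM in control, 5.49 and 3.68 in P and 7.37 and 5.02 in PLH. It passed in P (1.02 ± 0.34 SE, adjusted p = 0.018) and in 7 combinations but in no other single ligand, and 4 of its 8 calls held without control replicate 1. Set against P there, Z was lower (-1.64 ± 0.37 SE, adjusted p = 0.00069), and L, H, S and cG did not pass. Il2ra-d had 0 and 6 counts in control and 41 and 71 in PScG, and passed in 10 stimulations, 3 of them without control replicate 1. Il2ra-f passed as higher in 7 combinations, 1 of them without control replicate 2. The remaining calls were Il2ra-a in ScG and Il2ra-g in ZS and ZScG, both higher, and Il2ra-h, lower in ScG and ZcG.

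**Figure D3:**
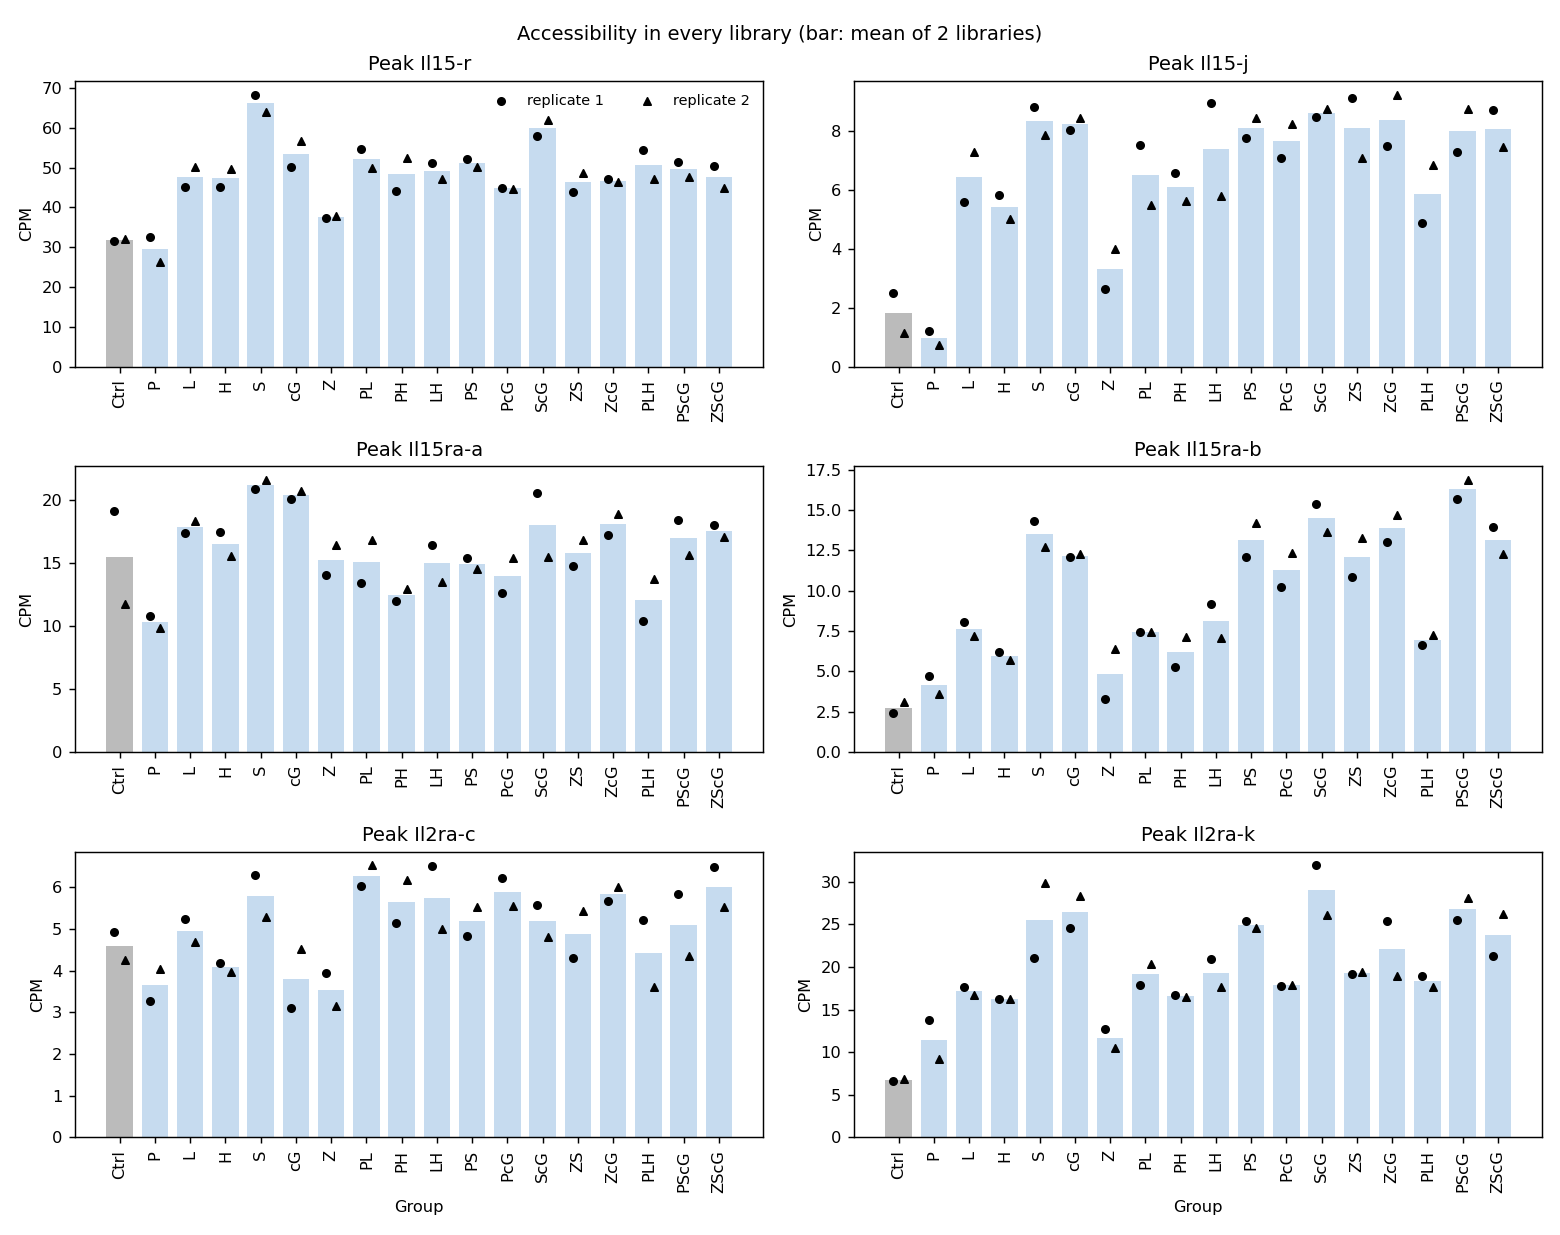
CPM in each library (circle, replicate 1; triangle, replicate 2) and the mean of 2 libraries (bar) for 6 peaks in all 18 groups. Il15-r, Il15-j and Il15ra-b have their lowest stimulated levels in P and Z, Il2ra-c has group means of 3.54 to 6.27 CPM, and Il2ra-k lies above control in every stimulated library.

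Because the 17 comparisons lean on the same control libraries, each other single ligand was also set against P, a comparison added after the data were seen. P had the lowest group mean at 12 of the 21 Il15 peaks and 2 of the 9 Il15ra peaks. Higher calls against P at those peaks, Il15-r, Il15-j and Il15ra-a among them, were therefore partly set by that choice. Sendai virus had 20 member peaks higher and 1 lower than P (11.6% and 12.9% of all tested peaks), 3',3'-cGAMP 19 and 0 (11.1% and 12.7%), LPS 17 and 0 (5.19% and 5.87%), HMW 15 and 1 (4.96% and 7.18%) and Zymosan depleted 6 and 1 (5.99% and 5.11%). These 5 comparisons share the P libraries. Il15-r was 1.17 ± 0.11 (SE) higher on the log2 scale in S than in P (adjusted p = 9.9e-20) and 0.35 ± 0.11 higher in Z (adjusted p = 0.025). Il15-j was higher than P in all 5, by 3.10 ± 0.31 in S and 1.79 ± 0.38 in Z. Il15ra-a was higher in all 5 as well, by 1.04 ± 0.16 in S and 0.57 ± 0.18 in Z (adjusted p = 0.017). Il2ra-b was higher than P in L (0.72 ± 0.16) and H (0.52 ± 0.17).

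Each pair was then compared with each of its single ligands, which asks what the second ligand added. Over the 16 comparisons 71 calls were higher and 21 lower, where 3.56% and 2.92% of all tested peaks were. Most of the higher calls came from adding a ligand to P or Z. PS had 16 peaks higher and 1 lower than P (9.36% and 8.78%), PcG 14 and 0 (7.39% and 7.35%), PL 13 and 0 (4.17% and 4.29%) and PH 9 and 0 (1.7% and 0.968%). ZS had 8 higher and 3 lower than Z (6.63% and 8.53%) and ZcG 7 and 0 (4.12% and 4.95%). Without P replicate 2 the higher counts were 9 for PS, 8 for PcG, 6 for PL and 3 for PH, and without Z replicate 2 they were 3 for ZS and 3 for ZcG. Of the 92 calls, 31 held without every library in turn.

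Il15-j, at 1.22 and 0.722 CPM in P, rose to 7.78 and 8.44 in PS (3.06 ± 0.31 SE on the log2 scale, adjusted p = 4.5e-16) and to 7.54 and 5.50 in PL (2.76 ± 0.33, adjusted p = 1.0e-11). Il15-r rose by 0.83 ± 0.11 from P to PL (adjusted p = 6.0e-10) and by 0.80 ± 0.11 from P to PS (adjusted p = 3.2e-10). Il15-o, Il15-r and Il15-j rose in each of the 4 pairs with P against P, and those 12 calls held without every library in turn. At the receptor genes, Il15ra-b rose from P in PS (1.66 ± 0.21), PcG (1.43 ± 0.21) and PL (0.84 ± 0.23, lost without P replicate 2 or PL replicate 1) and from Z in ZS (1.29 ± 0.23) and ZcG (1.48 ± 0.23). Il2ra-k rose in all 6 pairs with P or Z against that ligand, from 0.53 ± 0.15 in PH (adjusted p = 0.031) to 1.12 ± 0.15 in PS (adjusted p = 2.2e-10). Its calls in PL and PcG were lost without P replicate 2, that in PH without P replicate 2 or either PH library, and that in ZS without Z replicate 2.

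Against the other ligand of a pair with P or Z, calls were few and most were lower. PS had 1 peak higher and 4 lower than S (2.44% and 0.492%), ZS 0 and 4 (1.52% and 1%), PcG 0 and 4 than cG (5.59% and 3.52%), ZcG 0 and 1 (1.82% and 1.04%) and PL 0 and 1 than L (0.765% and 0.362%). PH had 1 and 1 against H (5.28% and 2.27%). Lower counts were 0 for PS without S replicate 1, 1 for PcG without cG replicate 2 and 1 for ZS without ZS replicate 1, and with scaling by total counts they were 13 for ZS and 10 for ZcG. Il15-r was lower in ZS than in S by 0.51 ± 0.10 (SE, adjusted p = 0.00052), a call lost without ZS replicate 1. It was lower in PS than in S by 0.37 ± 0.10 (adjusted p = 0.014), lost without S replicate 1 or either PS library and with scaling by total counts (adjusted p = 0.062). Il15ra-c was lower in PcG than in cG by 0.69 ± 0.13 (adjusted p = 2.0e-05), which held without every library in turn, and lower in PL than in L by 0.65 ± 0.14 (adjusted p = 0.0018), lost without L replicate 2 or PL replicate 2.

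The pairs without P or Z, LH and ScG, had few calls against their single ligands. LH had 0 member peaks higher or lower than L (0.0251% and 0.0393% of all tested peaks), with 2 higher and 1 lower at an unadjusted p under 0.05 and 0 by DESeq2. Against H it had 1 higher, Il2ra-f, and 0 lower (2.65% and 1.13%). ScG had 0 of each against S (0.477% and 0.102%), with 2 and 2 at an unadjusted p under 0.05 and 0 by DESeq2, and 1 higher and 2 lower against cG (3.02% and 1.92%). With scaling by total counts the lower counts were 3 against S and 6 against cG, and without cG replicate 2 that against cG was 0. The peak higher in ScG than in cG was Il15-g (0.93 ± 0.22 SE, adjusted p = 0.0034), a call lost without cG replicate 2 or ScG replicate 2.

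**Figure D4:**
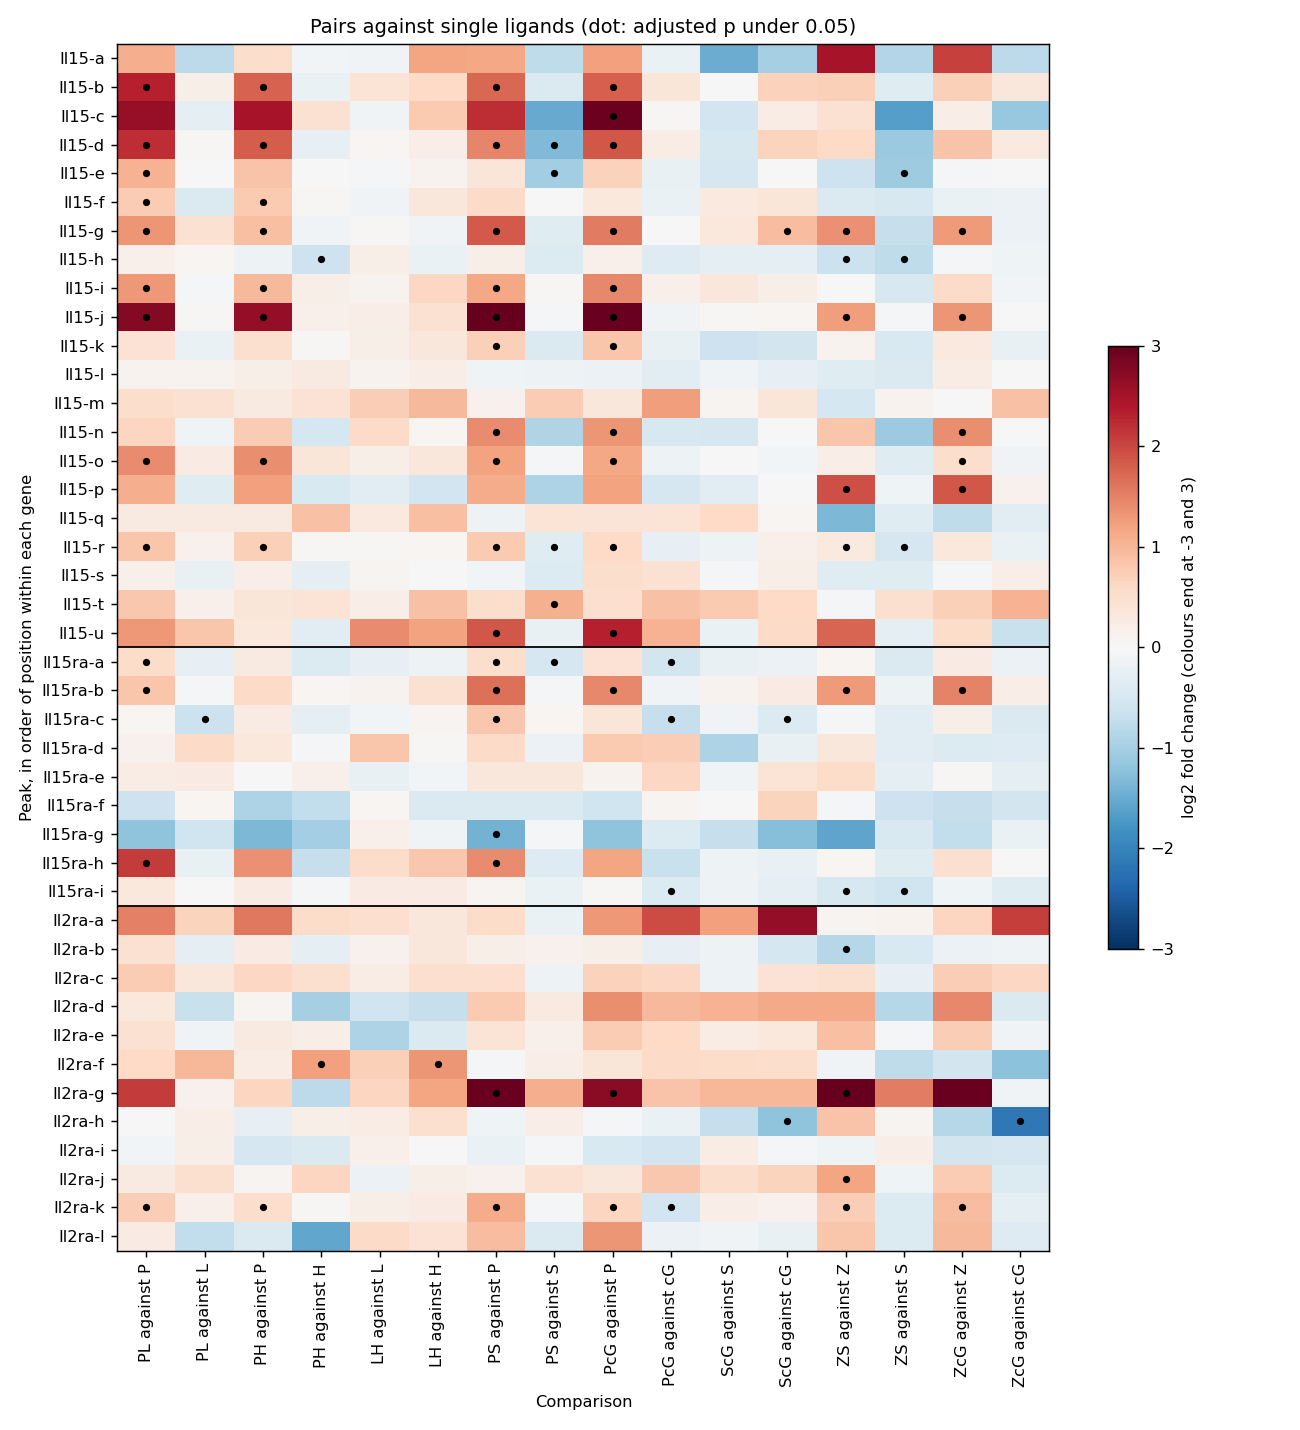
Fitted log2 fold change of each of the 42 peaks (rows) in each pair against each of its single ligands (16 columns), with colours ending at -3 and 3 and dots at the 92 calls. The columns against P hold 52 of the 71 higher calls, and those for LH against L and ScG against S hold no dot.

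Whether 2 ligands together differed from the sum of their separate log2 changes was tested as an interaction, pair minus both single ligands plus control. Over the 8 pairs, 3 calls were higher than the sum, at 2 member peaks, and 32 lower, where 2.07% and 3.1% of all tested peaks were. ScG had 0 higher and 12 lower (6.92% and 7.52% of all tested peaks), LH 0 and 8 (2.26% and 2.62%), ZS 0 and 5 (0.826% and 2.6%) and ZcG 0 and 2 (0.753% and 1.74%). PS had 1 higher and 2 lower (1.68% and 2.9%), PL 1 and 1 (2.57% and 4.18%), PcG 1 and 1 (1.09% and 2.17%) and PH 0 and 1 (0.471% and 1.08%). In LH, ZS and ScG the share of member peaks lower than the sum lay well above that of all tested peaks. These shares are not like for like. With L, H, S and cG member peaks were called mostly higher, while all tested peaks were called higher and lower in similar shares. A joint rise short of the sum counts as lower, and a joint fall short of it as higher. With scaling by total counts the totals were 1 higher and 65 lower, and without control replicate 1 the lower total was 18. Without S replicate 2 ScG had 8, without control replicate 1 LH had 3, and without Z replicate 2 ZS had 2.

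Il2ra-k was lower than the sum in LH, PS, PcG, ScG, ZS and ZcG. In ScG it reached 31.9 and 26.1 CPM, close to S and cG alone, and the interaction was -1.78 ± 0.22 (SE, adjusted p = 4.0e-11). In LH it was -1.09 ± 0.23 (adjusted p = 0.00067), and in PS -0.79 ± 0.23 (adjusted p = 0.0215), which was lost without either control library, P replicate 1, S replicate 2 or PS replicate 2. The call in ZcG (-1.03 ± 0.24) was lost without Z replicate 1 or ZcG replicate 2. The ScG interaction was also negative at Il15ra-b (-2.03 ± 0.32, adjusted p = 1.1e-07), Il15-j (-2.15 ± 0.39, adjusted p = 7.0e-06), Il15-r (-0.90 ± 0.15, adjusted p = 9.9e-07), Il15-o (-1.24 ± 0.23) and Il15-g (-1.76 ± 0.37), and each of these held without every library in turn. Control and ScG lie on 1 mitochondrial side and S and cG on the other, and the part of that split in this interaction was not tested.

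Il2ra-b, which fell with both P and S, was higher than the sum in PS (1.10 ± 0.23 SE, adjusted p = 0.00043), where it had 14.7 and 11.9 CPM against 11.3 and 12.0 in P and 12.0 and 12.0 in S. The same interaction was 0.69 in PL (adjusted p = 0.045), a call lost with scaling by total counts (adjusted p = 0.54) and without control replicate 1, either P library, either L library or PL replicate 1. Il15ra-e, which rose with P alone, was lower than the sum in PL, PH, LH, PS and ScG, from -1.58 ± 0.55 to -2.04 ± 0.53, and each of these calls was lost without control replicate 1. The other peak above its sum was Il15-s in PcG (1.26 ± 0.38, adjusted p = 0.035), lost without either control library, P replicate 1 or any cG or PcG library.

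Adding 1 more ligand to a pair gave few calls. Over the 9 comparisons of a triplet with a pair it contains, 1 call was higher and 8 lower, where 0.497% and 0.61% of all tested peaks were, and none of these 9 calls held without every library in turn. At an unadjusted p under 0.05 the counts were 30 and 40, and by DESeq2 1 and 7. PLH had 0 and 0 against PL (0.000837% and 0%), 0 and 0 against PH (0.158% and 0.0896%) and 0 and 1 against LH (0.343% and 0.203%), the 1 being Il15ra-c (-0.58 ± 0.14 SE, adjusted p = 0.014). PScG had 0 and 1 against PS (0.368% and 0.234%), where Il2ra-b was lower (-0.63 ± 0.17, adjusted p = 0.049). Against PcG it had 1 and 0 (0.202% and 0.21%), where Il2ra-k was higher (0.59 ± 0.14, adjusted p = 0.021), and against ScG 0 and 1 (2.11% and 2.42%), where Il15-f was lower (-0.80 ± 0.25). The Il2ra-b, Il2ra-k and Il15ra-c calls were each lost without any 1 of the 4 libraries compared, and the Il15-f call without ScG replicate 1, ScG replicate 2 or PScG replicate 1.

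ZScG had 0 and 0 against ZS (0.0142% and 0.0444%), with 5 higher and 0 lower at an unadjusted p under 0.05. It had 0 and 3 against ZcG (0.949% and 1.84%) and 0 and 2 against ScG (0.324% and 0.448%). Against ZcG the lower peaks were Il2ra-b (-0.93 ± 0.20 SE, adjusted p = 0.0020), Il15-l (-0.65 ± 0.16) and Il15ra-i (-0.63 ± 0.17). Each of these was lost without at least 1 library, Il2ra-b without ZcG replicate 2 alone. Against ScG they were Il15ra-i (-0.70 ± 0.16) and Il2ra-j (-1.37 ± 0.36, adjusted p = 0.034), both lost without ScG replicate 1 or either ZScG library.

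Interactions of 3 ligands, which remove what single ligands and pairs add, gave 2 calls higher and 2 lower (0.837% and 0.722% of all tested peaks). PScG had 1 and 2 (1.03% and 0.976%), ZScG 1 and 0 (0.974% and 0.917%) and PLH 0 and 0 (0.511% and 0.273%, with 3 and 9 at an unadjusted p under 0.05 and 0 by DESeq2). Il2ra-k was the higher peak in PScG (1.25 ± 0.30 SE, adjusted p = 0.0084) and in ZScG (1.14 ± 0.32, adjusted p = 0.033). A higher call here does not mean a higher level. Il2ra-k averaged 26.8 CPM in PScG and 23.8 in ZScG, against 29.0 in the pair ScG, whose libraries overlapped those of both triplets. The lower peaks in PScG were Il15-t (-2.36 ± 0.65) and Il2ra-b (-1.19 ± 0.34). None of these 4 calls held without every library in turn: Il2ra-k in PScG was lost without P replicate 1 or S replicate 2, and Il2ra-k in ZScG without any 1 of 9 libraries, both control libraries among them. Il15-t was lost without any 1 of 9 libraries and Il2ra-b without any 1 of 12. With scaling by total counts 12 were higher and 0 lower.

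Other genes of the common gamma chain family were counted by the same window rule against control. At ligand genes (Il2, Il4, Il7, Il9 and Il21) 48 of 340 peak and stimulation combinations were higher and 60 lower (14.1% and 17.6%). At the other receptor chains (Il2rb, Il2rg, Il4ra, Il7r, Il9r and Il21r) 137 of 1105 were higher and 98 lower (12.4% and 8.87%). At signalling genes (Jak1, Jak3, Stat3, Stat5a, Stat5b and Cish) 352 of 1615 were higher and 97 lower (21.8% and 6.01%). Over all tested peaks the shares were 13% and 12.3%, and 40 of the 60 lower calls at ligand genes lay at Il2. With scaling by total counts the 3 lists together had 862 higher and 133 lower calls in place of 537 and 255. The single peaks given below were picked as the most called of their gene, so their numbers of calls are partly set by that choice. The share of all tested peaks with as many calls was not counted.

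The beta chain Il2rb, which the interleukin-2 and interleukin-15 receptors share, had 39 of 85 combinations higher and 0 lower. Its most called peak rose in 16 stimulations, from 0.328 and 1.45 CPM in control to 4.65 and 4.86 in S (log2 fold change 2.36). The common gamma chain gene Il2rg had 2 of 102 higher and 10 lower. Il7r, the alpha chain of the interleukin-7 receptor, had 49 of 170 higher, and its most called peak went from 5.35 and 4.63 CPM in control to 10.4 and 12.2 in S.

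Among ligands, Il2 had 3 of 85 combinations higher and 40 lower. Its most called peak fell in all 17 stimulations, from 9.72 and 11.8 CPM in control to 4.06 and 3.88 in S (-1.44). Il7 had 38 of 102 higher and 4 lower. Its most called peak had 0 and 0.193 CPM in control, 5.03 and 4.26 in P, and 0.654 and 0.554 in S.

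Of the signalling genes, Stat5a and Stat5b encode transcription factors downstream of these receptors. Their most called peak, shared by the windows of both, rose in 16 stimulations. It went from 1.53 and 2.22 CPM in control to 9.75 and 10.6 in S (2.42). The most called peak of Cish, a feedback inhibitor of that pathway, rose in all 17. It went from 19.2 and 21.2 CPM in control to 33.0 and 36.2 in S (0.77). The most called peak of the kinase gene Jak1 fell in all 17, from 27.3 and 26.2 CPM to 15.2 and 13.7 in S (-0.89). Jak1 as a whole had 93 of 578 combinations higher and 76 lower. Jak3, the kinase bound to the common gamma chain, had 31 of 153 higher and 0 lower.

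Peaks outside the 3 loci were ranked by how closely their group means over the 18 groups followed Il15-r, Il15ra-a and Il2ra-c. The measure was Pearson's r on log2 CPM among 15255 peaks at gene ends, as a description. For Il15-r the closest peaks lay at Sumf1 (r = 0.913), Birc2 (0.906), Il27 (0.901), Cmpk2 (0.892) and Oasl1 (0.889). For Il15ra-a they lay at Apex1 and Osgep (0.923), Foxa3 and Sympk (0.912), Ulbp1 (0.897), Cfap45 (0.889) and Nfkbid (0.875). For Il2ra-c, whose own range was narrow, the likeness was lower, with Slc28a2b first (0.796), then Nr1d2 (0.773), Gng7 (0.750), Pla2r1 (0.745) and the gene end shared by Cpm and Mdm2 (0.731). All these values share the libraries and their depth.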

How the data were processed

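Open chromatin was measured by ATAC-seq in 36 libraries of mouse dendritic cells, 2 in each of 18 groups. The authors deposited a table of raw read counts per peak and library, with each peak's position (mm10). Per the submitters' processing notes, Bowtie2 2.2.9, MACS2 1.4, bedtools, featureCounts and mm10 were used, with no role or order given there. How Tn5 cuts were shifted and which filters were applied are not given in the sources used here.

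Peaks were matched to gene bodies of the RefSeq table (GRCm38.p6). A mitochondrial peak was left out, and peaks were kept with edgeR's filterByExpr (minimum count 10), which removed 286. Counts were scaled by TMM and fitted over all tested peaks and all 18 groups with edgeR 4.0.16's quasi-likelihood test in R 4.3.3 (18 residual degrees of freedom). The dispersion was estimated as a trend over abundance, with a common value of 0.01998. Benjamini-Hochberg adjustment was over all tested peaks of each comparison, with a threshold of 0.05. The standard error (SE) is the log2 fold change divided by the square root of F, without sign. CPM are counts divided by the scaled library size, with a prior count of 2 on the log2 scale. The procedure was tested on simulated data. Intervals and tests cover the spread of 2 libraries a group, and low peaks are limited by counting error.

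Peaks followed in every library were those over a gene's start or, for Il15, which had no listed start, within 1 kb of either end. For each gene the 3 others called in the most stimulations were added, ties by mean CPM. The genes, lists and rules were chosen with earlier results of these data known. Alternatives were DESeq2 1.42.0 (size factors and Wald test), total counts, abundance-dependent offsets (limma 3.58.1), no filter, the mitochondrial peak kept, a replicate block, only the groups compared, other windows and thresholds, and each library left out. Motifs were searched in promoter windows and not in the peaks, since peak sequence was not used here. The result of 1 marker list is not reported here.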

Additional observations from a re-analysis of the deposited data

Results flagged for a closer look

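Each of these results was picked out because a test of the difference itself, the interaction of ligands, passed an adjusted p under 0.05 in edgeR's quasi-likelihood test. Among pairs, the number of the 42 peaks whose response to 1 ligand differed with the other present was 12 for ScG, 8 for LH, 5 for ZS, 3 for PS, 2 for PL, 2 for PcG, 2 for ZcG and 1 for PH. Among triplets it was 3 for PScG and 1 for ZScG. In ScG 6.92% of all tested peaks were higher than the sum and 7.52% lower, and in LH 2.26% and 2.62%. ZS had 0.826% and 2.6%, PS 1.68% and 2.9%, PL 2.57% and 4.18%, and PcG 1.09% and 2.17%. ZcG had 0.753% and 1.74%, PH 0.471% and 1.08%, and the triplets PScG 1.03% and 0.976% and ZScG 0.974% and 0.917%. For PL the shares of member peaks, 2.38% and 2.38%, did not exceed those of all tested peaks. Of the 35 pair interactions 13 held without every library in turn, and of the 4 triplet interactions 0 did.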

How the results depend on the processing

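Scaling by total counts moved the most totals: lower calls against control went from 45 to 19, pairs against single ligands from 21 to 39 lower, pair interactions from 3 to 1 higher and from 32 to 65 lower, triplets against pairs from 1 to 4 higher, triplet interactions from 2 to 12 higher and from 2 to 0 lower, and the pathway lists from 537 to 862 higher and from 255 to 133 lower. The cause was not tested. Lower calls against control were 21 within gene bodies, 21 with a 5 kb window, 79 with a 50 kb window and 23 at an adjusted p under 0.01. Offsets by abundance left 5 of the 8 lower calls of triplets against pairs. The 5 single ligands other than P had 6 lower calls against control and 3 against P, a comparison added after the data were seen.

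Leaving out 1 library at a time gave 170 to 233 higher and 24 to 46 lower calls against control, 45 to 73 and 16 to 21 for pairs against single ligands, 1 to 3 and 18 to 34 for pair interactions, 0 to 1 and 4 to 8 for triplets against pairs, 0 to 3 and 0 to 3 for triplet interactions, and 410 to 538 and 171 to 257 for the pathway lists. A group left with 1 library was assumed to vary like the others. With the replicate number as a block the counts were 229 and 45 against control, 72 and 20, 3 and 32, 1 and 7, 2 and 2, and 532 and 256 in the same order. Same-numbered libraries did not deviate together (correlations of -0.04 to 0.03 over 153 pairs of groups). That cannot tell whether the numbers pair the samples, since a pairing with small effects could leave no such correlation. Most peaks followed in every library were picked for their number of calls, so losses among them do not stand for all 42 peaks. Of the 150 calls among the peaks followed in every library, 12 were lost under some of 8 other settings, 37 without some library, and 0 changed direction.

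With 2 libraries a group, peaks near 1 CPM rest on few counts, and many calls against control rest on which control library is used.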
